A study of Glycine max with 4 samples.

Results

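Broad single sites are stretches of soybean chromatin at which ChIP-seq for the protein encoded by GLYMA.07G038400 gave a wide peak in replicate 1, opposite 1 peak in replicate 2. Members were chosen by their width in replicate 1 and their overlap with replicate 2: a member is a replicate 1 peak on a chromosome that is at least 800 bp wide and overlaps exactly 1 replicate 2 peak by at least 1 bp. Of 31090 replicate 1 peaks, 21720 on the 20 chromosomes overlapped exactly 1 replicate 2 peak, and 1145 of these were broad single sites. The other 20575 are the narrower shared sites used here for comparison.

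The series holds 4 samples from early maturation embryos of the soybean cultivar Williams 82, dissected from seeds of 6 to 7 mm. The 2 ChIP samples, described as biological replicates, were made with an antibody against a peptide of amino acids 188 to 202 of the protein. The 2 input samples are total chromatin with no antibody, 1 for each ChIP sample. No sample lacked the protein, so sites recovered by the antibody without it cannot be told apart from bound sites. The labels do not say whether the replicates came from separate plants, so their spread may in part be technical.

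The deposited peaks are named GRF5, and in plants GRF usually stands for growth-regulating factor. Growth-regulating factors are plant-specific transcription factors that work with coactivator partners and are best known for promoting cell proliferation in growing organs. In ChIP-seq, a factor bound at 1 short stretch of DNA usually gives a peak a few fragment lengths wide, whose highest point, the summit, lies near the middle. A peak caller also reports as 1 region any neighbouring stretches of signal that run together, and then gives the summit of the highest of them. Peak position, width and summit therefore describe where signal lay, and do not count the bound sequences within it.

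The replicate 1 list was the wider and deeper of the 2. Its median peak rested on 34 overlapping ChIP fragments against 26 in replicate 2. The smallest peaks, which reflect the fragment length used in calling, were 222 bp and 191 bp. These pileups were recovered from the deposited fold and p-value, and intervals given for them cover counting error only. Coordinates are 1-based positions on the authors' assembly, which the sources used here do not name, so neither the genes next to the sites nor their sequences were analysed here.

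Width chose the members in replicate 1, and most of that width was present in replicate 2 as well. The members were 800 to 2329 bp wide in replicate 1, with a median of 913 bp (interquartile range 846 to 1032). Their replicate 2 peaks had a median width of 745 bp (606 to 872), against 326 bp (257 to 421) at the narrower shared sites. The replicate 2 peak was itself at least 800 bp wide at 456 members, or 39.8% (95% Wilson interval 37.0 to 42.7). Over all 21720 shared sites this share was 2.30%, and at the narrower ones it was 0.214%.

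Replicate 1 peaks were the wider ones at most shared sites of any size, and the rule, which asked for a wide replicate 1 peak, favours this at members. Width was greater in replicate 1 at 94.8% of the members and at 86.3% of the narrower sites. The median ratio of replicate 1 to replicate 2 width was 1.21 at members and 1.25 at narrower sites. Most replicate 2 peaks lay wholly inside their replicate 1 peak, at 78.9% of members and 63.5% of narrower sites. The replicate 2 peak covered a median of 82.7% of the member's width.

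**Figure D1:**
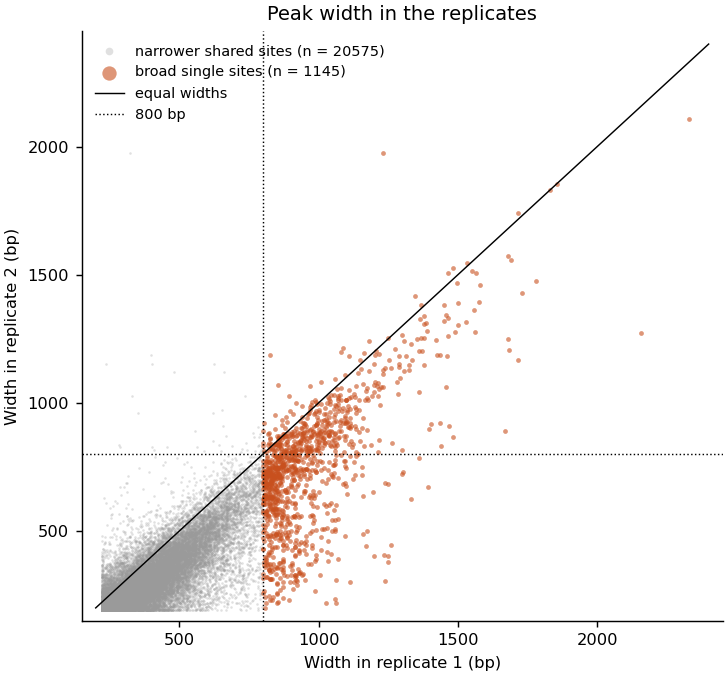
Width in replicate 2 (bp, vertical) against width in replicate 1 (bp, horizontal) for 1145 broad single sites (orange) and 20575 narrower shared sites (grey), 1 point per site, with the line of equal widths and dotted lines at 800 bp. Most orange points lie along and under the line of equal widths, and 99 of them have replicate 2 widths under 400 bp.

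Not every member was broad a second time. At 99 members (8.65%) the replicate 2 peak was under 400 bp wide, with a median of 329 bp. Over all shared sites the share with such a replicate 2 peak was 67.1%. The 99 members were weak for members, with median folds of 9.39 in replicate 1 and 6.63 in replicate 2. The medians of narrower sites were 7.59 and 6.73. At the 456 members whose replicate 2 peak also reached 800 bp, the medians were 18.8 and 15.9. The wider the replicate 1 peak, the more often the second was broad. From 800 to 899 bp, 15.1% of 523 members had a replicate 2 peak of at least 800 bp, and from 900 to 999 bp it was 42.9% of 280. From 1000 to 1199 bp it was 69.4% of 235, and at 1200 bp or more it was 87.9% of 107. The median ratio of replicate 1 to replicate 2 width was 1.22 in the first of these classes and 1.14 in the last. Members near the limit in replicate 1 thus tend to fall under 800 bp in replicate 2, and the fixed limit favours such a rise. Spearman's rho between the 2 widths was 0.56 over the members, which share both libraries and are not independent replicates.

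When the replicates exchanged roles, fewer sites met the rule. Replicate 2 held 528 peaks of at least 800 bp, of which 516 overlapped exactly 1 replicate 1 peak. At 94.6% of the 516 the replicate 1 peak was also at least 800 bp wide. In all, 454 pairs of peaks met the rule in both directions, which is 39.7% of the replicate 1 members and 88.0% of the replicate 2 ones.

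Broad single sites were strongly enriched sites. Fold enrichment, the authors' ratio of ChIP to local background at the summit, had a median of 16.4 in replicate 1 (interquartile range 11.4 to 24.0, range 2.24 to 76.2). In replicate 2, whose folds did not choose the members, the median was 14.1 (9.37 to 19.9). The narrower sites had medians of 7.59 and 6.73. Members thus exceeded narrower sites 2.09-fold in median replicate 2 enrichment, and the median for members was the higher on each of the 20 chromosomes, at 11.8 to 17.5 against 6.56 to 6.97. A replicate 2 fold of at least 20 was reached by 286 members, or 24.98% (22.6 to 27.6), where the share over all shared sites was 4.94%.

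The reads behind the members were correspondingly many. The median member summit rested on 91 fragments in replicate 1 (range 20 to 391) and 60 in replicate 2 (15 to 339). Narrower sites had medians of 40 and 27. Backgrounds were close between the groups, at medians of 4.36 and 4.40 fragments in replicate 1 and 3.14 and 2.98 in replicate 2. Members and narrower sites thus differed in ChIP pileup far more than in background.

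**Figure D2:**
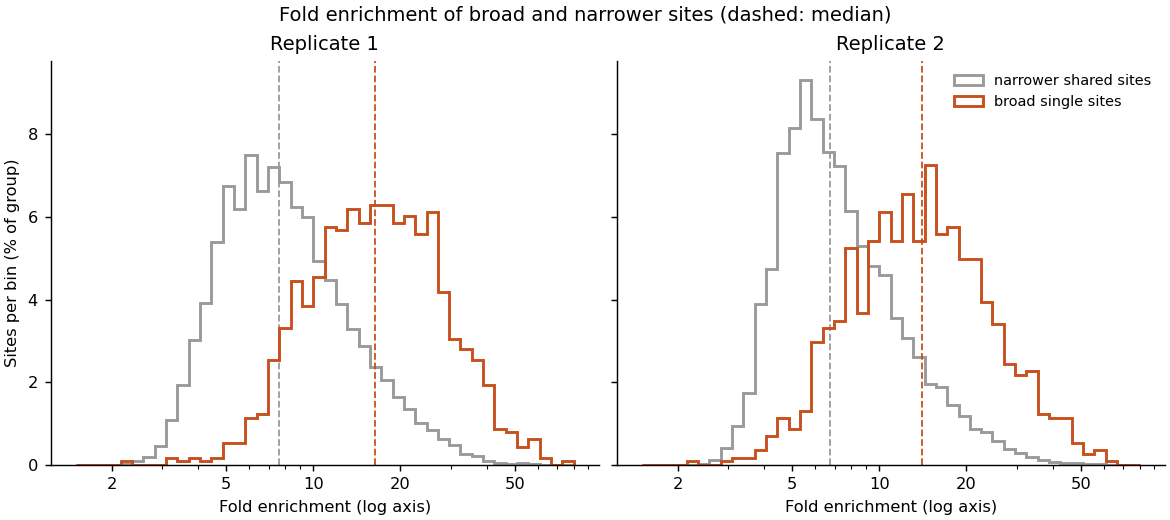
Fold enrichment (log axis) of broad single sites (orange) and narrower shared sites (grey) in replicate 1 (left) and replicate 2 (right), as the percentage of each group in each bin, with dashed lines at the medians. The medians are 16.4 and 7.59 in replicate 1 and 14.1 and 6.73 in replicate 2, and the groups overlap over most of the range.

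Strength and breadth went together across the whole list. Of the shared sites with a replicate 1 fold under 5, 0.316% were broad single sites. The share was 1.85% at folds of 5 to 10, 9.03% at 10 to 20 and 25.7% at 20 to 40. At 40 or more it was 55.4%, or 46 of 83 sites. By the lower of their folds, 53 of the 100 strongest shared sites and 295 of the 1000 strongest were broad. Over all shared sites the share was 5.27%. Folds of the replicates went together, so comparing sites of the same replicate 1 fold class also fixes much of the replicate 2 fold, and the next values are a description. Weighted over those classes, replicate 2 enrichment was 1.09-fold higher at members than at narrower sites. In the class of 10 to 20, the median replicate 2 folds were 12.02 and 10.54, at 20 to 40 they were 21.2 and 20.1, and at 40 or more they were 39.3 and 40.4.

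Among the members, width and strength were more loosely related than over all shared sites. Spearman's rho between width and fold was 0.39 over the members in replicate 2, against 0.67 over all shared sites. In replicate 1, whose widths the rule restricted, it was 0.12 against 0.70. The rule did not use replicate 2 width, but widths of the replicates went together (Spearman's rho 0.73 over all shared sites). It thus narrowed the range of widths in both replicates, which favours a lower rho at members. Members of 800 to 899 bp had a median replicate 2 fold of 12.7 and those of 1200 bp or more had 17.1. The folds themselves kept their order between replicates, with a Spearman's rho of 0.83 over members and 0.71 over narrower sites. They differed by at most 2-fold at 95.02% of members and 95.19% of narrower sites. The SD of the log2 ratio of the folds was 0.45 over members and 0.49 over narrower sites.

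The 10 strongest members, ordered by whichever of their folds was lower, had mean folds between 44.9 and 69.2. The highest lay on chromosome 9 at 6967190 to 6968056. Its fold was 76.2 in replicate 1 and 62.1 in replicate 2, a mean of 69.2 ± 10.0 (SD, n = 2), on 391 fragments (95% exact Poisson interval 353 to 432) and 339 (304 to 377). Its summit stood 43.3% and 42.7% of the way along the peak, so this member was nearly symmetric in both replicates. A second member on chromosome 9, at 1568482 to 1569382, had folds of 65.5 and 58.3 and its summit at 33.0% and 39.99%. The member on chromosome 14 at 13786523 to 13787332 had folds of 58.3 and 56.2, on 308 fragments (275 to 344) and 226 (198 to 257).

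Several of the 10 were lopsided in the same way in both replicates. On chromosome 16, the member at 25636560 to 25637644 had folds of 59.8 and 52.2, with the summit at 68.8% and 71.8%. Chromosome 19 held one at 39130630 to 39132159 with folds of 53.3 and 49.7, and another at 45041775 to 45043332 with 46.7 and 58.2. Their summits lay at 66.8% and 74.8% for the former and at 68.6% and 74.6% for the latter. The opposite lean was seen on chromosome 18 at 998862 to 1000324, where folds were 45.4 and 44.4 and the summit stood at 26.1% and 21.6%. In these 4 members the longer side ran 694.5 to 1180.5 bp from the summit and the shorter side 272.5 to 508.5 bp, taking both replicates together. The other strong members were on chromosome 4 at 3158964 to 3159793, on chromosome 18 at 21108551 to 21109374 and on chromosome 15 at 7330602 to 7331650. The last of them was 1049 bp wide in replicate 1 and 543 bp in replicate 2, with nearly equal folds of 48.4 and 46.7. Replicate 1 gave the higher fold in 8 of the 10 members, and the SD between replicates averaged 3.82.

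The summit of a broad single site commonly stood away from the middle of its peak. Its median distance from the centre was 139.5 bp in replicate 1 and 101 bp in replicate 2, against 25.5 bp and 23 bp at narrower sites. As a share of the peak's own width, this was 15.0% and 14.2% at members and 6.21% and 7.25% at narrower sites. In replicate 2 the summit lay at least 100 bp from the centre at 579 members, or 50.6% (47.7 to 53.5), where the share over all shared sites was 7.84%. The replicate 2 median was higher for members on each of the 20 chromosomes, at 12.7% to 17.9% of the width against 6.83% to 7.64%. Neither side was favoured. The summit lay before the centre, towards lower coordinates, at 49.69% of members in replicate 1 and 49.96% in replicate 2.

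The side to which the summit leaned was mostly shared by the replicates. It was the same in replicates 1 and 2 at 838 of 1145 members, or 73.2% (70.5 to 75.7). Over all shared sites with a summit off the exact centre in both replicates, the share was 56.3%, and over narrower ones 55.3%. Where the replicate 1 summit stood at least 100 bp off, the shares were 76.6% of 762 members (73.5 to 79.5) and 66.2% of 1351 narrower sites (63.6 to 68.6). Pearson's r between the signed positions, as a share of width, was 0.51 over members and 0.13 over narrower sites. At narrower sites the replicate 2 summit stood a median of 23 bp off centre, less than the median of 31 bp between summits. A shift of that size can change the side. At members these medians were 101 bp and 30 bp, so their larger offsets favour a higher share and a higher r.

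Agreement on the side rose with strength. The share of members on the same side was 61.1% at replicate 1 folds of 5 to 10, 73.0% at 10 to 20, 79.0% at 20 to 40 and 84.8% at 40 or more. Narrower sites of those classes gave 53.6%, 60.1%, 64.4% and 59.5%. For sites at least 100 bp off centre, however, members and narrower sites of the same class had similar shares, at 76.7% and 78.6% for folds of 10 to 20 and 86.1% and 82.9% for folds of 20 to 40. In every one of the 20 chromosomes the overall share was higher for members, at 63.9% to 81.8% against 51.9% to 58.3%. It was 82.2% where the replicate 2 peak also reached 800 bp, and 52.5% where it was under 400 bp.

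**Figure D3:**
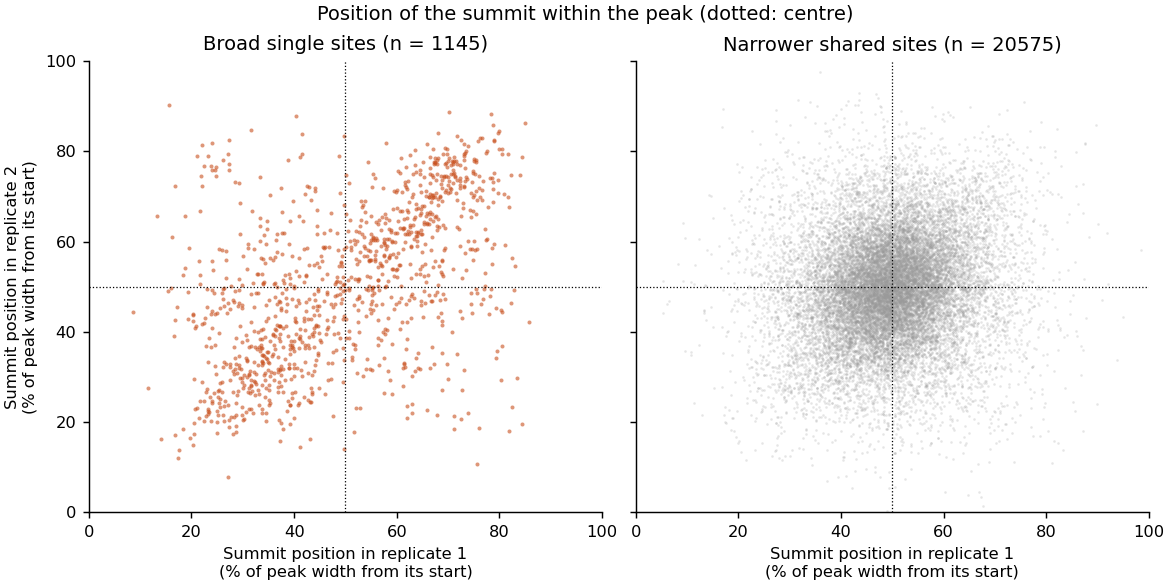
Position of the summit in replicate 2 against replicate 1, each as the percentage of the peak's width from its start, for 1145 broad single sites (left) and 20575 narrower shared sites (right), 1 point per site, with dotted lines at the centre. The members spread along the diagonal, with 73.2% of them on the same side in both replicates, while the narrower sites gather around the centre.

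The extra width of the members lay on both sides of the summit, and mainly on the longer side. In replicate 2 the shorter side of a member measured a median of 240.5 bp and the longer side 480.5 bp, against 138.5 bp and 181.5 bp at narrower sites. At folds of 10 to 20 the member's shorter side in replicate 2 was 227 bp, close to the 232.5 bp of the longer side of narrower sites, and the member's longer side was 499.5 bp. At folds of 20 to 40 the members' shorter side was 279.5 bp and the narrower sites' longer side 284.5 bp, with 494.5 bp on the members' longer side. These class values set the shorter side of one group against the longer side of the other. They therefore do not show that members match narrower sites on their shorter side. The shorter side grew with strength in both replicates. The longer side in replicate 1 did not, with medians of 628.5 bp at folds of 5 to 10 and 608.5 bp at 40 or more, a measure that the width rule itself bounds from below.

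**Figure D4:**
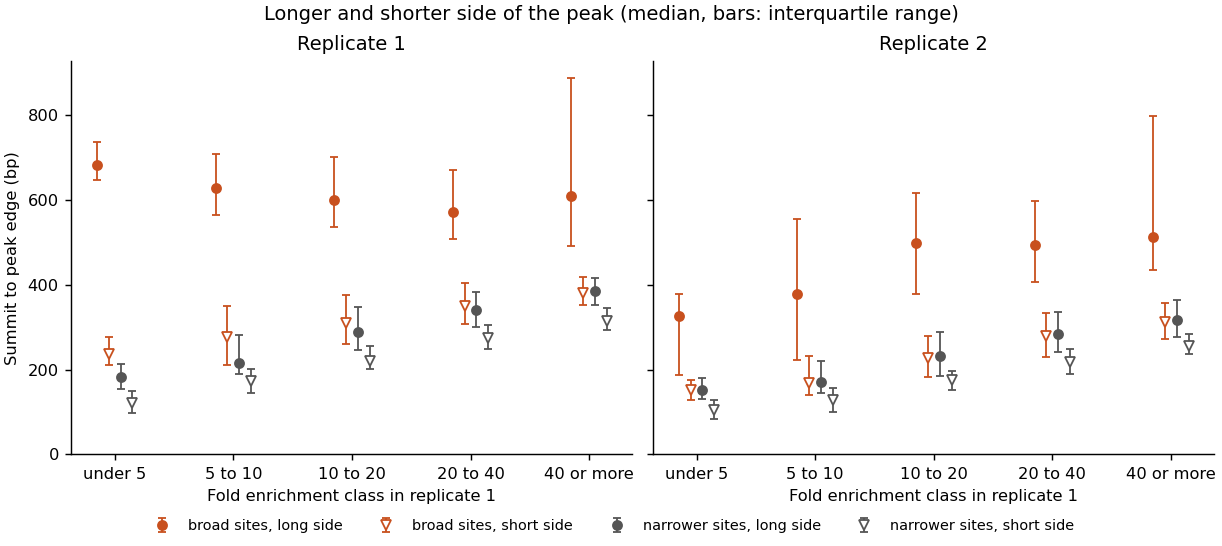
Distance from the summit to the nearer (triangles) and farther (circles) edge of the peak in bp, by fold enrichment class in replicate 1, for broad single sites (orange) and narrower shared sites (dark grey), in replicate 1 (left) and replicate 2 (right). Points are medians and bars are interquartile ranges; in both panels the medians of the orange circles stand above the rest, while the orange triangles lie near the grey circles of the same class.

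The 3 members described next were picked as the most off-centre on the same side in both replicates, so their shared lean is fixed by that choice. On chromosome 9, the member at 1183631 to 1185086 had its summit at 85.1% of the width in replicate 1 and 86.4% in replicate 2, the summits being 2 bp apart. Its folds were 10.5 and 9.04. The member on chromosome 5 at 40467352 to 40469207 leaned the other way, with summits at 14.0% and 16.3%, 25 bp apart. It was also the third widest, at 1856 and 1855 bp, and its folds were 18.7 and 24.8. Also on chromosome 9, the member at 48830000 to 48831096 had summits at 16.7% and 17.1%, 5 bp apart, with folds of 15.6 and 11.4.

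None of the 5 widest members was among the 10 strongest. As a width class, though, members of 1200 bp or more had the highest median replicate 2 fold, at 17.1. The widest, on chromosome 20 at 36894677 to 36897005, spanned 2329 bp, and its replicate 2 peak 2107 bp. Its folds were 19.0 and 16.7, and its summits, 12 bp apart, stood at 18.3% and 18.5%. The signal thus ran on beyond the summit for 1903.5 and 1717.5 bp. The next, on chromosome 18 at 46127003 to 46129160, was 2158 bp wide in replicate 1 and 1271 bp in replicate 2, with folds of 30.2 and 19.4. On chromosome 19, the member at 49322846 to 49324675 had almost the same edges in both replicates, at 1830 bp and 1831 bp, and folds of 28.0 and 32.2. The fifth, on chromosome 3 at 44521211 to 44522991, had its summit at the same base in both replicates and folds of 9.91 and 14.8. Folds were thus higher in replicate 1 at 2 of the 5 widest members.

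Over all fold classes together, summits of the replicates coincided about as closely in the median at members as at narrower sites. A minority of members had summits far apart. The median distance between summits was 30 bp at members and 31 bp at narrower sites, and 69.6% and 71.0% lay within 50 bp. Within 100 bp lay 970 members, or 84.7% (82.5 to 86.7), where the share over all shared sites was 92.0%. The distance fell with fold in both groups, and against narrower sites of the same fold class the members' summits were farther apart, by 7.72 bp in the weighted median. In the class of 10 to 20, the medians were 33 bp and 25 bp, and at 20 to 40 they were 22 bp and 20 bp.

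At 78 members, or 6.81% (5.49 to 8.42), the summits were more than 222 bp apart, the fragment length of replicate 1. The share over all shared sites was 1.43%, and it was 1.13% at narrower sites. Summits can lie no farther apart than the overlapping peaks reach, and narrower sites had median widths of 425 and 326 bp. The width rule therefore favours a higher share at members, and at the wider members. The share went from 5.16% of members of 800 to 899 bp to 12.1% of those of 1200 bp or more. By strength it was 13.6% of members at folds of 5 to 10, 7.23% at 10 to 20 and 2.65% at 20 to 40. The members' share was higher on 19 of the 20 chromosomes. The exception was chromosome 18, with 0 of 50 members, which allows a share of up to 6.00%. Shares per chromosome rest on few distant summits. On chromosome 2 the margin was small, at 1.75% of 57 members against 1.57% of narrower sites.

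The label of a single site therefore holds for the number of peaks, and not for the summit, at these 78 members. Their summits were a median of 384.5 bp apart and fell on the same side in 17.9% of them, values that the choice of distant summits largely sets. Of the 78, 47 (60.3%) were at least 800 bp wide in replicate 2 too, which the choice of distant summits also favours. The share was 39.8% over all members and 2.30% over all shared sites. Their median folds, 11.6 and 10.2, were lower than the 17.0 and 14.3 of the other 1067 members. The replicate 2 summit lay inside the replicate 1 peak at all 78, and the replicate 1 summit inside the replicate 2 peak at 68. These counts are not given here for the other members, so they are no contrast with them.

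The 5 members with the most distant summits were each broad in both replicates. Overlapping peaks whose summits lie that far apart tend to be wide, so the choice favours this. On chromosome 3, at 42210711 to 42212288, the summits stood 883 bp apart, at 24.0% of the width in replicate 1 and 81.8% in replicate 2, with folds of 11.6 and 11.1. Chromosome 17 held one at 3401454 to 3403169 with 825 bp between summits and folds of 13.7 and 12.4. The member on chromosome 1 at 29734109 to 29735788 ran against the others, with the replicate 1 summit at 79.6% and the replicate 2 summit at 35.8%, 758 bp apart, and folds of 33.6 and 29.9. On chromosome 11, at 457175 to 458656, the distance was 748 bp and the folds were 14.6 and 18.7. The strongest of the 5 was on chromosome 15 at 6230694 to 6232128, with 714 bp between summits and folds of 50.7 and 35.4. It rested on 213 fragments (185 to 244) and 132 (110 to 157).

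**Figure D5:**
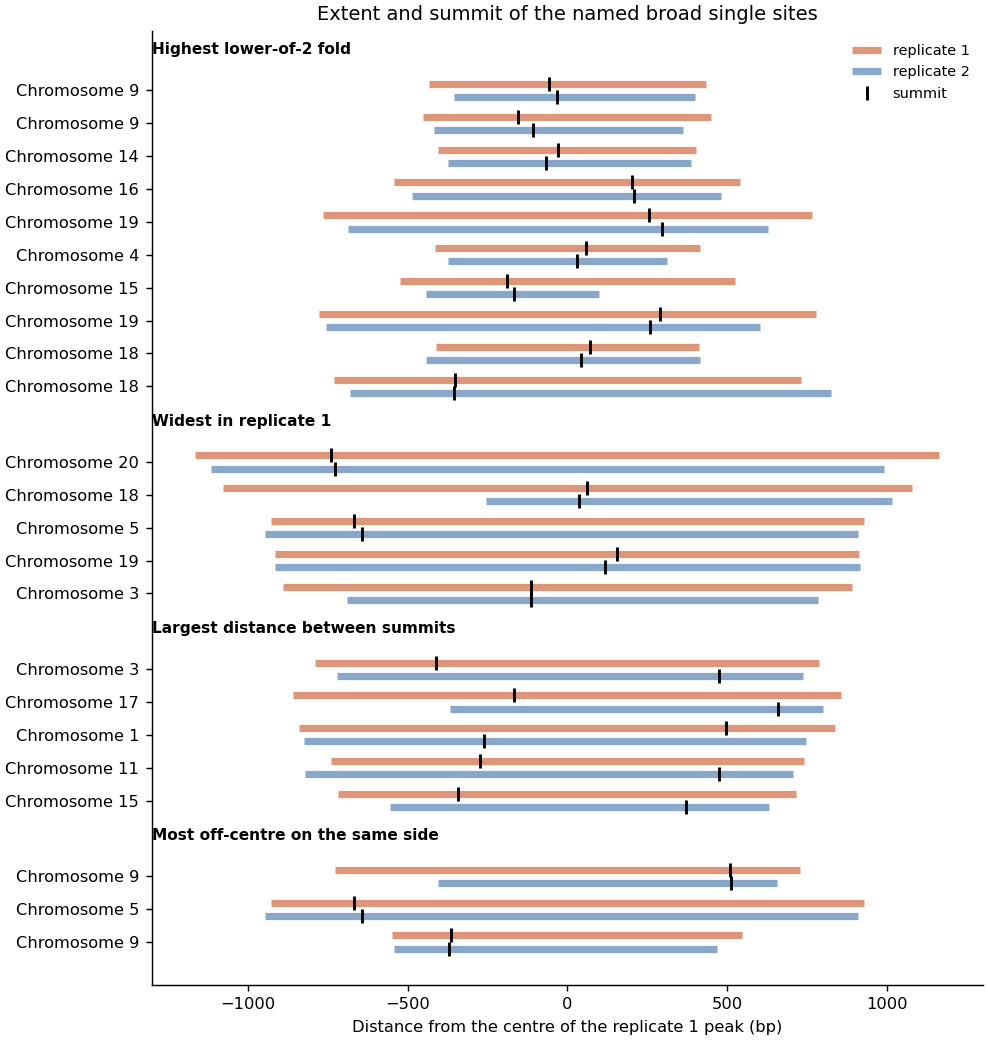
Extent (bars) and summit (black ticks) of the named members in replicate 1 (orange) and replicate 2 (blue), in bp from the centre of the replicate 1 peak, grouped into the 10 of highest lower-of-2 fold, the 5 widest, the 5 with the most distant summits and the 3 most off-centre on the same side. Summits of the first 10 differ by 5 to 47 bp, and those of the 5 most distant by 714 to 883 bp.

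Weak broad sites were few, and the weakest were seldom broad in replicate 2. Only 12 members had a replicate 1 fold under 5. The lowest of all, on chromosome 19 at 48751316 to 48752199, had folds of 2.24 and 2.21. It differed from the rest in its background of 65.1 and 54.7 fragments, under pileups of 147 and 122, and its summits were 18 bp apart. The next 3 had replicate 1 folds of 7.12 to 8.59 and replicate 2 folds of 3.08 to 3.29. They lay on chromosome 19 at 44049556 to 44050379, on chromosome 8 at 9228333 to 9229240 and on chromosome 18 at 3662516 to 3663340, and their replicate 2 peaks were 311, 273 and 230 bp wide. The fifth, on chromosome 16 at 1997158 to 1998029, was stronger in replicate 2, with folds of 3.34 and 6.02 on 20 and 23 fragments, and its summits were 513 bp apart.

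Sites on either side of the 800 bp limit had similar replicate 2 widths. The 69 members of 800 to 809 bp had median folds of 15.6 and 12.9 and a median replicate 2 width of 636 bp. The 73 shared sites of 790 to 799 bp had 12.6, 11.5 and 630 bp. Summits lay on the same side in both replicates at 78.3% of sites just inside the limit and 69.4% just outside. Over all narrower sites this share was 55.3%. The median distance of the replicate 2 summit from the centre was 11.97% of the width just inside and 10.88% just outside. It was 7.25% over all narrower sites. Off-centre summits on a shared side were thus not confined to members. At exactly 800 bp stood 12 members, with replicate 1 folds of 8.49 to 37.1 and replicate 2 folds of 9.02 to 30.9. The 8 shared sites of 799 bp had 4.60 to 32.5 and 5.71 to 25.6.

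Broad single sites had other peaks close by more often than narrower ones. Another replicate 2 peak lay within 2 kb, edge to edge, of 545 members, or 47.6% (44.7 to 50.5). The share over all shared sites was 36.9%, and it was 36.3% at narrower sites. In replicate 1 it was 56.8% of members and 44.2% of narrower sites. The median gap to the nearest replicate 2 peak was 2197 bp for members and 3636 bp for narrower sites. The share was higher for members on all 20 chromosomes, at 39.3% to 65.3% against 30.9% to 38.7%.

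Strong sites of any width had more neighbours, and within fold classes the difference was smaller. At folds of 10 to 20, 47.5% of members and 41.2% of narrower sites had a replicate 2 neighbour within 2 kb, and at 20 to 40 it was 50.9% and 45.8%. At 40 or more it was 52.2% and 54.1%. Weighted over the classes, the difference fell from 11.3 to 5.61 percentage points. Very close neighbours had similar shares in both groups, with a replicate 2 peak within 500 bp at 10.2% of members (8.59 to 12.1) and 9.38% of narrower sites. The rule bears on this, because it left out wide peaks that overlapped a second replicate 2 peak. These were 409 of the 1564 wide replicate 1 peaks, so the similar shares do not compare wide with narrower peaks in general. At the other extreme, no replicate 2 peak lay within 10 kb of 16.2% of members and of 27.7% of narrower sites.

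The longer side of a member pointed towards its nearest neighbour about as often as away from it. Among the 650 members with another replicate 1 peak within 2 kb, the longer side faced the nearest peak at 326, or 50.2% (46.3 to 54.0). Narrower sites gave 49.95%. By width class the share among members varied, at 56.2% (50.5 to 61.9) from 800 to 899 bp and 41.2% (33.9 to 49.0) from 900 to 999 bp. It was 47.4% (39.1 to 55.8) from 1000 to 1199 bp and 50.7% (39.2 to 62.2) at 1200 bp or more, and the variation between classes was not tested. Consecutive members were a median of 258 kb apart. Of the 1125 gaps between them, 31 were of 2 kb or less and 87 of 10 kb or less. Whether this spacing differs from that of other sites was not tested.

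Every chromosome carried broad single sites, 38 on chromosome 16 and 75 on chromosome 13 being the extremes. As a share of a chromosome's shared sites they made up 5.32% on average (SD 0.928, n = 20 chromosomes). The share was lowest on chromosome 3, at 3.95% (95% Wilson interval 2.90 to 5.36), and highest on chromosome 20, at 6.99% (5.47 to 8.90). Chromosome 13 stood at 4.73% (3.79 to 5.89), so its high number of members went with its high number of sites. Per Mb, members ranged from 0.852 on chromosome 3 to 2.08 on chromosome 11, taking the last peak's end as the chromosome length.

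Most members, as most shared sites, lay in the outer parts of the chromosomes. The terminal 25% on either side held 942 members, or 82.3% (79.95 to 84.4), where the share over all shared sites was 79.0%. It was 78.8% at narrower sites. Members had the higher share on 14 of the 20 chromosomes, so this small difference was less regular than those in strength, summit position and neighbours. On chromosome 13 the outer parts held 42.7% of members and 45.4% of narrower sites.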

How the data were processed

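ChIP-seq peaks of 2 ChIP replicates were analysed, and the inputs only as far as the peak caller had used them. Tissue was crosslinked for 10 minutes in 1% formaldehyde and sonicated to 100 to 500 bp, and libraries had 15 PCR cycles, per the labels' protocols. The tools were Bowtie 0.12.7 for alignment and MACS2, per the submitters' processing notes. Neither the assembly nor which MACS2 release was run is given in the sources used here. Peaks were deposited per replicate. By column order, the deposited fold is the ratio at the summit of ChIP to background, the deposited significance values are −log10 p and −log10 q, and the deposited score is 10 times the −log10 q. Replicate 2 peak names contain a q of 0.01.

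Pileup k and background λ were solved from fold = (k + 1)/(λ + 1) and the Poisson tail, and deviated from whole numbers by at most 0.0721% and 0.581% of a step. The methods were tested on simulated data. Members are not replicates of a condition and there are 2 replicates, so groups are described by counts, medians and Wilson intervals (95%, counting error only), with no p-value. Correlations are across sites. Fold classes have bounds of 5, 10, 20 and 40. Named sites are the 10 of highest and 5 of lowest lower-of-2 fold, the 5 widest, the 5 with the most distant summits, the 3 most off-centre on the same side, and those at 799 and 800 bp. The members and these rules were chosen with earlier results of these data known. Python 3.11.15, numpy 2.4.6, scipy 1.17.1, pandas 2.3.3, statsmodels 0.14.6 and matplotlib 3.10.9 were used.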

Additional observations from a re-analysis of the deposited data

Results flagged for a closer look

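Unplaced scaffolds, which the rule leaves out, carried 5 further peaks of at least 800 bp that overlapped exactly 1 replicate 2 peak. They drew attention as signal outside the chromosomes, and they lay on 4 scaffolds. They made up 3.82% of the 131 shared sites there (95% Wilson interval 1.64 to 8.62). Their median folds were 17.0 in replicate 1 and 16.8 in replicate 2, their median widths 878 and 707 bp, and their summits were at most 59 bp apart.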

How the results depend on the processing

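The members' count fell from 1145 to 342 with a width minimum of 1000 bp and rose to 2157 with 700 bp. Choosing by replicate 2 widths, with overlap of exactly 1 replicate 1 peak still asked, gave 516 members. With no overlap asked, replicate 1 alone gave 1564 and replicate 2 alone 528. With the minimum of 700 bp, 22.0% of members had a replicate 2 peak of at least 800 bp, the ratio of replicate 2 folds to narrower sites was 1.88 and the summits were 2 bp farther apart in the median. With 1000 bp, 75.1% had such a peak, and members exceeded narrower sites by 9.60 percentage points of width in summit offset, 14.8 in neighbours, 6.17 in the outer parts of chromosomes and 8.95 in summits over 222 bp apart. A −log10 q of at least 10 in both lists gave a fold ratio of 1.61, summits 3 bp farther apart, 7.06 points more neighbours and 14.2 points more same-side summits. Against narrower sites weighted by fold class, the fold ratio was 1.09, summits were 7.72 bp farther apart, and the excess was 5.61 points in neighbours and 12.9 in same-side summits. With the replicates exchanged, 94.6% of members were broad in the other list, the fold ratio was 2.35, summits were 2 bp farther apart, and the excess was 9.45 points in summit offset, 24.9 in same-side summits and 7.37 in distant summits. The difference in median summit distance, −1 bp as reported, thus changed sign under 4 of these settings. Neighbours within 1 kb gave an excess of 4.27 points. At a −log10 q of at least 10 the members numbered 1263, and the other member counts not given above lay between 1143 and 1148. All other differences and shares under alternatives stayed within their replicate or counting spread. The cause of these changes was not tested. The same-side and distant-summit comparisons were added after seeing the data. No paired analysis was possible because the peak lists analysed here are of ChIP, with input used inside the calling. Depth limits weak sites most, where the smallest member pileups were 20 and 15 fragments.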

Other observations

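Of the 1564 replicate 1 peaks of at least 800 bp on chromosomes, 409 overlapped 2 or more replicate 2 peaks and were left out by the rule. Their median width was 1053 bp and their median fold 13.2, against 913 bp and 16.4 at broad single sites. Another 10 overlapped no replicate 2 peak, with a median fold of 5.66. The strongest of the 10 lay on chromosome 8 at 13066658 to 13067746, with a fold of 19.4 on 101 fragments. The next, on chromosome 2 at 39913413 to 39914279, had a fold of 8.28 on 51 fragments. These 2 were singled out after their values were seen.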
